A study of Mus musculus with 12 samples.

Results

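Genes for cell surface receptors and the gene of 1 receptor accessory protein were followed through the early differentiation of 3T3-L1 cells with and without knockdown of Prmt1. The 9 genes, out of 39423 in the count table, were Ffar4, Ffar2, Hcar1, Hcar2, Mrap, Mc2r, Adrb3, Ptger3 and Adgrf5, and every one was found by its exact gene name. They were chosen by their measured levels in these same libraries, so their levels and their differences are given below as a description, without p-values. 3T3-L1 is a clonal line of mouse embryonic fibroblasts that turn into fat-storing cells when growth-arrested cultures are given a hormone mixture, here MDI, which holds dexamethasone, the phosphodiesterase inhibitor IBMX and insulin. RNA was sequenced from 4 conditions with 3 libraries each: control siRNA (siCtrl, labelled NC) and siRNA against Prmt1 (siPRMT1), both after 24 h and after 72 h of MDI. All 12 libraries came from this 1 line and all received MDI and an siRNA. PRMT1 is an enzyme that methylates arginine residues of proteins. An siRNA lowers a transcript for a time and does not remove the gene, and which PRMT1 siRNA was sequenced is not given in the sources used here. Nothing in the labels says that the 3 libraries of a condition came from separate cultures, so p-values measure only the spread between these libraries, which may be technical.

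Most of these receptors act through G proteins that raise or lower cyclic AMP, the second messenger that drives the breakdown of stored fat (lipolysis) in adipocytes. The β3-adrenergic receptor (Adrb3) and the ACTH receptor (Mc2r) couple to the stimulatory G protein. MC2R needs the small membrane protein MRAP to reach the cell surface and to signal. The lactate receptor (Hcar1), the receptor for 3-hydroxybutyrate and nicotinic acid (Hcar2), and the prostaglandin E2 receptor EP3 (Ptger3) couple to inhibitory G proteins and oppose lipolysis, and FFAR2, which responds to short-chain fatty acids such as acetate, also couples to inhibitory G proteins. FFAR4 (GPR120) responds to long-chain fatty acids. ADGRF5 (GPR116) is an adhesion G protein-coupled receptor, known from lung, blood vessels and fat.

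The starts of 4 of the genes are shown so that their sequence can be set beside the shared pattern of levels. Promoter windows of RefSeq (build GRCm38.p6), each with 250 bases before and 50 bases after an annotated start, were matched by symbol for 5 of the 9 genes. Ffar2 had 4 such windows and Adgrf5 had 2, and counts per gene do not tell which start was used. The windows printed 5′ to 3′ on the strand of the gene are chr7:30823726-30824025 (minus strand, Ffar2), chr17:43389216-43389515 (plus strand, Adgrf5), chr19:38096829-38097128 (plus strand, Ffar4) and chr5:123879954-123880253 (minus strand, Hcar1). Capitals mark matches to AGGTCA, a recognition element of nuclear receptors, or to TTGCNNAA, a core of the C/EBP motif, on either strand.
Ffar2: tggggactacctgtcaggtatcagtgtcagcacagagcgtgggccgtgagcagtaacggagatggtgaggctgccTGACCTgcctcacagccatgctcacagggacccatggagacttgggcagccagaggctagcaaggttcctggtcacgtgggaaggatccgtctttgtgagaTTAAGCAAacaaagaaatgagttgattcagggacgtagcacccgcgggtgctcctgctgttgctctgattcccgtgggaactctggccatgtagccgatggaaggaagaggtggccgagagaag
Adgrf5: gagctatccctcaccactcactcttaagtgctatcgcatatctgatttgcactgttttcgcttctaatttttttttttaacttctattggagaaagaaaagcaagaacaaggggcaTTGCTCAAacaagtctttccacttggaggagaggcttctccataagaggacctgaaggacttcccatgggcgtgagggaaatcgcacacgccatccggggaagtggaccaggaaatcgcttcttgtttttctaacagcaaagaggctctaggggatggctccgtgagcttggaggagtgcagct
Ffar4: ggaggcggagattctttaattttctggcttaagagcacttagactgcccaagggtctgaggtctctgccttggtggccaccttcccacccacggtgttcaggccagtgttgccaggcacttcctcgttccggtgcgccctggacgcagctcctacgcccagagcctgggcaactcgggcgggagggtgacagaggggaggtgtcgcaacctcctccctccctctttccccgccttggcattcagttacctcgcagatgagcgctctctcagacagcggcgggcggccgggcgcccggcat
Hcar1: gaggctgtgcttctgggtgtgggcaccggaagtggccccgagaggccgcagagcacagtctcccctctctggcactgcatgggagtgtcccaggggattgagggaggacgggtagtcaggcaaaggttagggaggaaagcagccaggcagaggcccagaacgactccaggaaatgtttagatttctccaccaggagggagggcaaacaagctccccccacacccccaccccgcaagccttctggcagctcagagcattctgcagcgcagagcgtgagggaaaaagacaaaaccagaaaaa

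In the Ffar2 window, the reverse complement of AGGTCA began 175 bases before the start and that of TTGCNNAA 74 bases before it. The printed Adgrf5 window, which lies downstream of the first start of the gene, held TTGCNNAA, beginning 134 bases before its start. The other Adgrf5 window, at the first start (chr17:43360181-43360480), held no match to any motif searched. Windows of Ffar4, Hcar1 and Ptger3 held no match to either motif, nor to TGACGTCA (the cyclic AMP response element), TATAAA (the TATA box) or a direct repeat of AGGNCA with 1 base between. These letters are common: of 32817 mouse windows of the same length, 16.3% held AGGTCA, 10.8% TTGCNNAA, 13.6% TATAAA, 1.79% TGACGTCA and 0.381% the direct repeat. A match describes the sequence and not a bound site, and the windows of Ffar2 that overlap each other repeat the same matches.

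The 12 libraries held 15116462 to 42357137 counts. Levels are given in FPKM, counts scaled to the length of the gene and the total of the library, which can be compared between genes. Prmt1 was checked first. The siCtrl libraries of 24 h held 82.9, 83.4 and 91.3 FPKM of Prmt1, those with siPRMT1 43.8, 38.6 and 41.4 FPKM. The values of 72 h were 110.6, 120.4 and 140.3 FPKM against 62.0, 71.7 and 68.5 FPKM. Its log2 fold change was −1.11 (SE 0.0758, adjusted p = 0.000985) at 24 h and −0.88 (SE 0.0883, adjusted p = 1.22e-05) at 72 h, by edgeR's quasi-likelihood test with Benjamini-Hochberg adjustment. Every siPRMT1 library was below every siCtrl library of its time point. A gene is called changed below at an adjusted p under 0.05 in this test together with an absolute log2 fold change above 0.5.

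After 24 h of MDI the 9 genes were nearly silent in both conditions. Their mean levels ran from 0 (Ffar4) to 0.160 FPKM (Mc2r) in siCtrl and from 0 to 0.230 FPKM (again Ffar4 and Mc2r) in siPRMT1. At 72 h in siCtrl the mean levels were 118 FPKM for Mrap, 10.6 for Adgrf5, 9.30 for Mc2r, 5.28 for Hcar2, 3.14 for Hcar1, 1.71 for Ffar2, 1.25 for Ffar4, 0.147 for Adrb3 and 0.0367 for Ptger3. In this order the libraries of Adgrf5 and Mc2r overlapped, and no other neighbours did, although the last genes rest on few reads. Mrap stood above 98.4% of all genes in the table at that time point, and Ptger3 above 54.2%, shares that include the genes at 0. In siPRMT1 at 72 h the order was different: Mrap (49.7 FPKM), Mc2r (7.46), Adgrf5 (4.56), Hcar1 (1.49), Hcar2 (1.35), Ffar2 (0.713), Ffar4 (0.223), Adrb3 (0.0967) and Ptger3 (0.0133). Here Hcar1 overlapped Hcar2 and Ffar4 overlapped Adrb3.

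**Figure D1:**
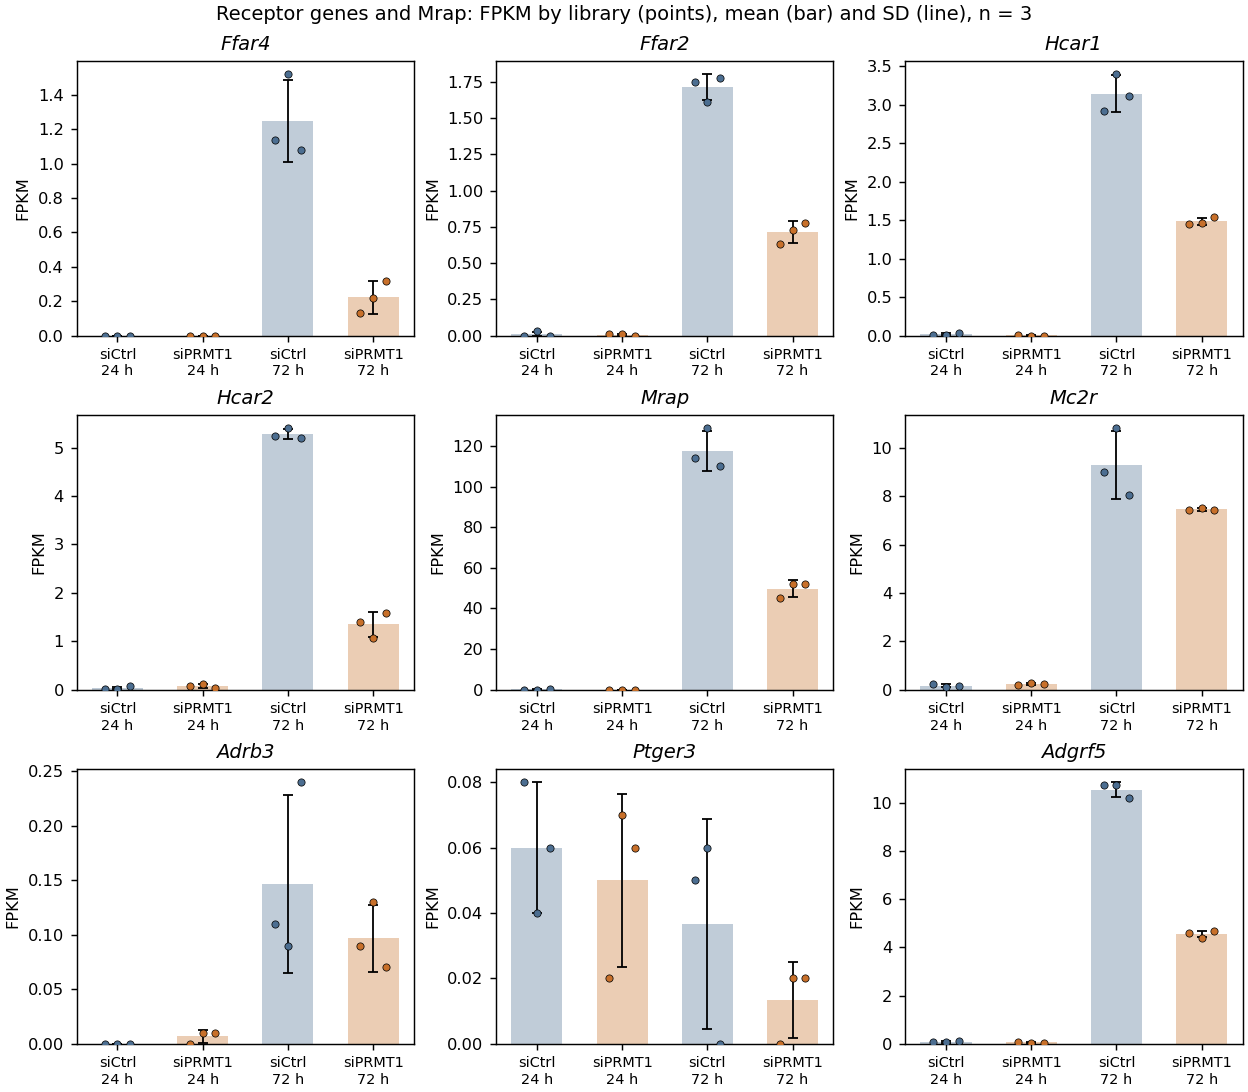
Level of each gene in FPKM (linear axes from 0, each with its own range) in the 4 conditions; points are libraries, bars the mean and lines the SD of 3 libraries. 7 genes are near 0 at 24 h and clearly above it at 72 h, with the siPRMT1 points under all siCtrl points, by the least for Mc2r, while Adrb3 and Ptger3 stay under 0.25 FPKM in every library.

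Of the 9 genes, 7 passed the filter on low counts at 72 h, and 6 of them were called lower in siPRMT1, with none called higher. Of all 14039 genes tested, 3.8% were called lower and 2.84% higher. The median log2 fold change was −1.25 over the 7 genes and 0.0073 over all genes tested. Since the genes were selected on levels that include this contrast, the count repeats part of that choice. By size of the fall among the 534 genes called lower, Ffar4 stood at place 3, Hcar2 at 9, Ffar2 at 68, Mrap at 76, Adgrf5 at 85 and Hcar1 at 121. Ffar4 passed the filter through its siCtrl counts, the group where it was higher, so its call and place repeat part of that filter. Mc2r was the gene tested and not called, and Adrb3 and Ptger3 had too few counts to be tested.

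**Figure D2:**
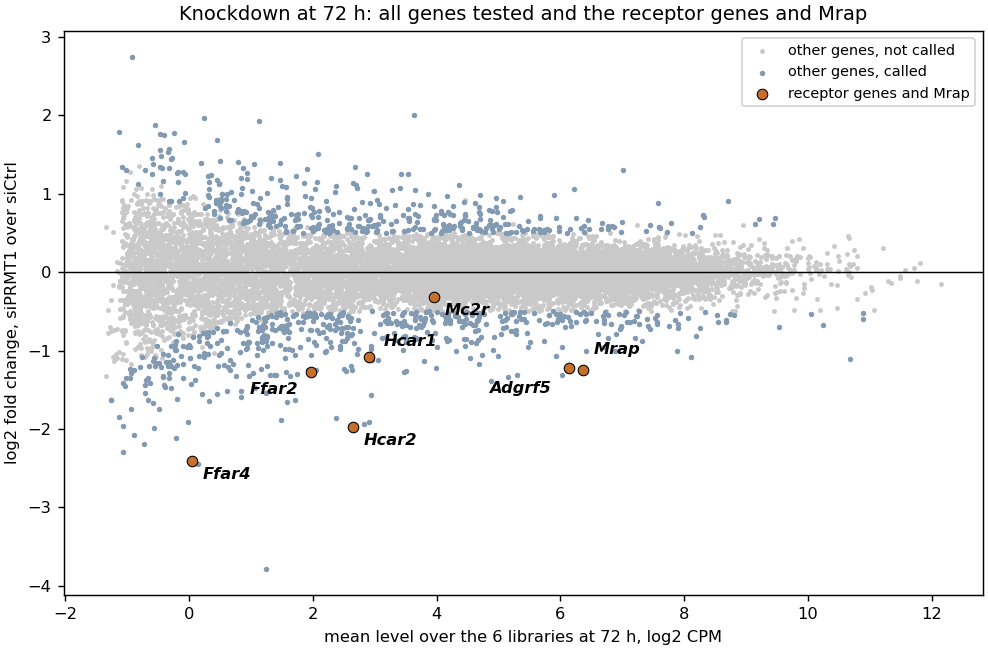
Log2 fold change of siPRMT1 over siCtrl at 72 h against the mean level in log2 CPM, counts scaled to the library total; grey points are genes not called, blue points other genes called, and orange points the 7 receptor and accessory genes tested. Ffar4 (−2.41) and Hcar2 (−1.98) lie near the lower edge of all genes and Mc2r (−0.31) within the grey cloud.

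The metabolite receptors came up between 24 h and 72 h, and at 72 h they stood lower after knockdown. Ffar4 (chr19:38097079-38114263, plus strand), the long-chain fatty acid receptor, had no count in any of the 6 libraries at 24 h. At 72 h it had 32, 32 and 36 counts in siCtrl, or 1.14, 1.52 and 1.08 FPKM, and 4, 8 and 11 counts in siPRMT1, or 0.13, 0.22 and 0.32 FPKM. The groups did not overlap and siPRMT1 kept 17.9% of the siCtrl mean, a log2 fold change of −2.41 (SE 0.309). This was the most marked fall of the 9 genes and also the one with the least reads behind it among those tested. Ffar4 passed the filter on low counts through siCtrl, so its fold change and call are given as a description. Over the pooled counts of each condition, the siPRMT1 level was 0.188 times that of siCtrl, with a 95% counting interval of 0.114 to 0.298. Such intervals cover counting error only.

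Hcar2 (chr5:123863570-123865516, minus strand), the receptor for 3-hydroxybutyrate, measured 5.24, 5.40 and 5.20 FPKM in siCtrl and 1.40, 1.06 and 1.58 FPKM in siPRMT1 at 72 h. The siCtrl libraries lay close together and far above siPRMT1, which kept 25.5% of the siCtrl mean (log2 fold change −1.98, SE 0.144). Its neighbour Hcar1 (chr5:123876736-123880020, minus strand), the lactate receptor, measured 2.92, 3.40 and 3.11 FPKM against 1.45, 1.47 and 1.54 FPKM, so that 47.3% remained (log2 fold change −1.08, SE 0.117). The 2 genes lie on the same strand, 11219 bases apart with 0 genes between them in the table, and their GENCODE transcripts share 0 stretches of 50 or of 30 bases. Although neighbours, they were lowered to different extents. Within each siCtrl library Hcar2 stood at 1.79, 1.59 and 1.67 times Hcar1, and within the siPRMT1 libraries at 0.966, 0.721 and 1.03 times, without overlap. Thus Hcar2 was the more abundant transcript per length in every siCtrl library, and stood at 0.721 to 1.03 times Hcar1 after knockdown. In siCtrl at 72 h each gene had 606 pooled counts, so their order there rests on the counted lengths, 1947 bases for Hcar2 and 3285 for Hcar1.

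Ffar2 (chr7:30818031-30823775, minus strand), the short-chain fatty acid receptor, measured 1.75, 1.61 and 1.78 FPKM in siCtrl and 0.63, 0.73 and 0.78 FPKM in siPRMT1 at 72 h. No siPRMT1 library reached the siCtrl range, and 41.6% of the siCtrl mean remained (log2 fold change −1.27, SE 0.142). The ratio of Ffar4 to Ffar2 within a library averaged 0.734 ± 0.183 (SD, n = 3) in siCtrl and 0.306 ± 0.102 (SD, n = 3) in siPRMT1. The fatty acid receptors therefore differed in how much of their level was kept, with the few reads of Ffar4 as a limit.

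Mrap and Mc2r, the accessory protein and its receptor, rose together over time but were not lowered together. Mrap (chr16:90738324-90749776, plus strand) was by far the most abundant of the 9 transcripts at 72 h, at 113.9, 128.7 and 110.0 FPKM in siCtrl and 44.9, 52.1 and 52.0 FPKM in siPRMT1. It kept 42.3% of its siCtrl mean (log2 fold change −1.25, SE 0.0847), with a wide gap between the groups. Mc2r (chr18:68406899-68429320, minus strand) measured 9.02, 10.8 and 8.06 FPKM in siCtrl and 7.43, 7.52 and 7.43 FPKM in siPRMT1. The groups of Mc2r did not overlap either, but the gap was narrow: 80.2% remained, and the log2 fold change of −0.31 (SE 0.111) did not meet the call rule. Mrap thus stood at 12.6, 11.9 and 13.7 times Mc2r in the siCtrl libraries and at 6.04, 6.93 and 7.00 times Mc2r in the siPRMT1 libraries.

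**Figure D3:**
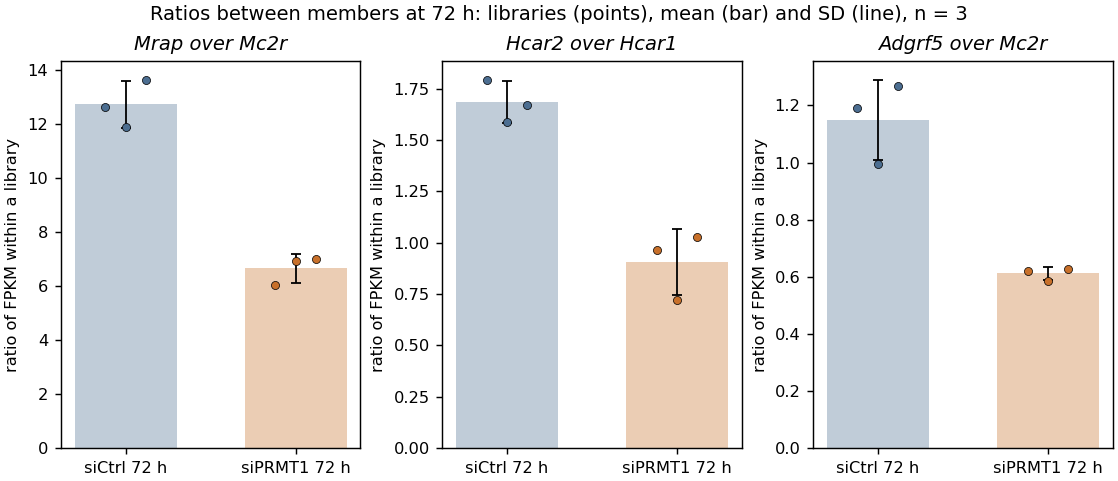
Ratios of FPKM between 2 genes within each library at 72 h (linear axes from 0); points are libraries, bars the mean and lines the SD of 3 libraries. Mrap over Mc2r, Hcar2 over Hcar1 and Adgrf5 over Mc2r are all lower in siPRMT1, without overlap between the groups.

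Adgrf5 (chr17:43360327-43459557, plus strand), the adhesion receptor, varied little between the libraries of either condition. At 72 h it measured 10.7, 10.7 and 10.2 FPKM in siCtrl and 4.61, 4.40 and 4.67 FPKM in siPRMT1. The siPRMT1 libraries kept 43.2% of the siCtrl mean (log2 fold change −1.22, SE 0.0713), and the groups were well apart. Its ratio to Mc2r was 1.15 ± 0.141 (SD, n = 3) in siCtrl and 0.611 ± 0.0231 (SD, n = 3) in siPRMT1. The receptors were thus about level in siCtrl, and Adgrf5 was the lower of them in every siPRMT1 library. Adgrf5 is also known from endothelial cells, and endothelial markers were near the floor: 10 of them summed to 2.80 to 3.85 CPM (counts scaled to the library total alone) at 72 h, with Cldn5 and Erg at 0 in all 12 libraries, whereas Adgrf5 alone stood at 95.2 to 100.2 CPM in siCtrl and 41.0 to 43.6 CPM in siPRMT1. Of the 2 endothelial markers tested at 72 h, Cdh5 was called lower, from 0.253 ± 0.0451 to 0.110 ± 0.0700 FPKM (SD, n = 3), and its part in the difference of Adgrf5 was not tested. At 24 h it was the 1 gene of the 9 that could be tested, with 25, 12 and 19 counts in siCtrl and 16, 13 and 10 in siPRMT1. These overlapped (log2 fold change −0.39, SE 0.312) and the gene was not called, where 3.56% of 13689 genes were called in either direction.

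Adrb3 and Ptger3, receptors that stimulate and inhibit lipolysis in mature fat, were barely detected. Adrb3 (chr8:27225776-27230807, minus strand) had 8, 5 and 20 counts in siCtrl and 7, 12 and 6 counts in siPRMT1 at 72 h, which overlapped. Its pooled level in siPRMT1 was 0.619 times that of siCtrl (95% counting interval 0.353 to 1.07), so a marked fall or no fall at all could not be told apart at this depth. At 24 h it had 0 counts in siCtrl and 0, 1 and 1 in siPRMT1. Ptger3 (chr3:157566816-157644758, plus strand) was the gene that did not come up: it had 7, 2 and 3 counts at 24 h and 2, 2 and 0 at 72 h in siCtrl. In siPRMT1 it had 1, 4 and 3 counts at 24 h and 0, 1 and 1 at 72 h, and no difference was detectable at this depth.

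The rise from 24 h to 72 h was next set out for each siRNA, with counts pooled over the 3 libraries and divided by the pooled totals. In siCtrl, Mrap rose 1399-fold (95% counting interval 679 to 3482), from 7 counts in all at 24 h to 6806 at 72 h. Ffar2 rose 238-fold (65.4 to 1975), Hcar1 174-fold (74.3 to 539), Adgrf5 149-fold (115 to 198), Hcar2 145-fold (66.4 to 398) and Mc2r 51.3-fold (35.3 to 77.7). Ffar4 and Adrb3 had no count at 24 h and were set against a floor of 3 counts over the 3 libraries. At 72 h Ffar4 stood at 48.0 times this floor and Adrb3 at 15.8 times. Their 95% counting intervals began at 38.3 and 12.2 and had no upper limit. Ptger3 stood at 0.480 times its 24 h level, with an interval of 0.113 to 1.58 that includes no change. In the fit over siCtrl libraries 7 of the genes were tested and all 7 were called higher, against 22.7% of 13829 genes. All but Adgrf5 passed the filter through their 72 h counts alone and so had to differ. Adgrf5 had 25, 12 and 19 counts at 24 h, but was chosen on these levels like the others.

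In siPRMT1 the genes other than Ptger3 also stood higher at 72 h. Mrap rose 1229-fold (95% counting interval 420 to 5964), Adgrf5 81.1-fold (59.2 to 114), Mc2r 32.3-fold (22.7 to 47.5) and Hcar2 17.7-fold (9.66 to 36.0). Hcar1 rose 364-fold (65.0 to 14431), more than in siCtrl but from 1 count in all at 24 h, and Ffar2 rose 86.5-fold (23.6 to 720). Ffar4 stood at 7.89 times the floor of 3 counts, with an interval that began at 5.92 and had no upper limit. Adrb3 stood at 12.9 times (3.21 to 112) and Ptger3 at 0.257 times (0.0266 to 1.29) its 24 h level. The intervals of siCtrl and siPRMT1 were apart for Adgrf5, by little, and for Hcar2, and overlapped for Mrap, Mc2r, Ffar2 and Hcar1. They cover counting error only and leave out the spread between libraries. Knockdown and course share their control libraries, so a low siCtrl value at 24 h or a high one at 72 h enters both. In the fit of siRNA, time and their interaction over all 12 libraries, 8.24% of 14612 genes were called in either direction. Among the 7 genes that passed the filter there, Hcar2 met the call rule, which is given as a description, since the genes were chosen on these levels and Hcar2 passed the filter through its 72 h counts. Its knockdown difference was lower by 2.92 on the log2 scale at 72 h than at 24 h (SE 0.657), an estimate that rests on 2, 1 and 3 counts in siCtrl and 3, 6 and 2 in siPRMT1 at 24 h. Without siPRMT1 replicate 2 of 24 h Hcar2 no longer met the rule. Adgrf5 (−0.82, SE 0.268) did not meet the rule, but met it when siCtrl replicate 3 of 24 h was left out. Ffar4 also passed the filter, but with no count at 24 h its difference between the time points could not be estimated, and no value is given.

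**Figure D4:**
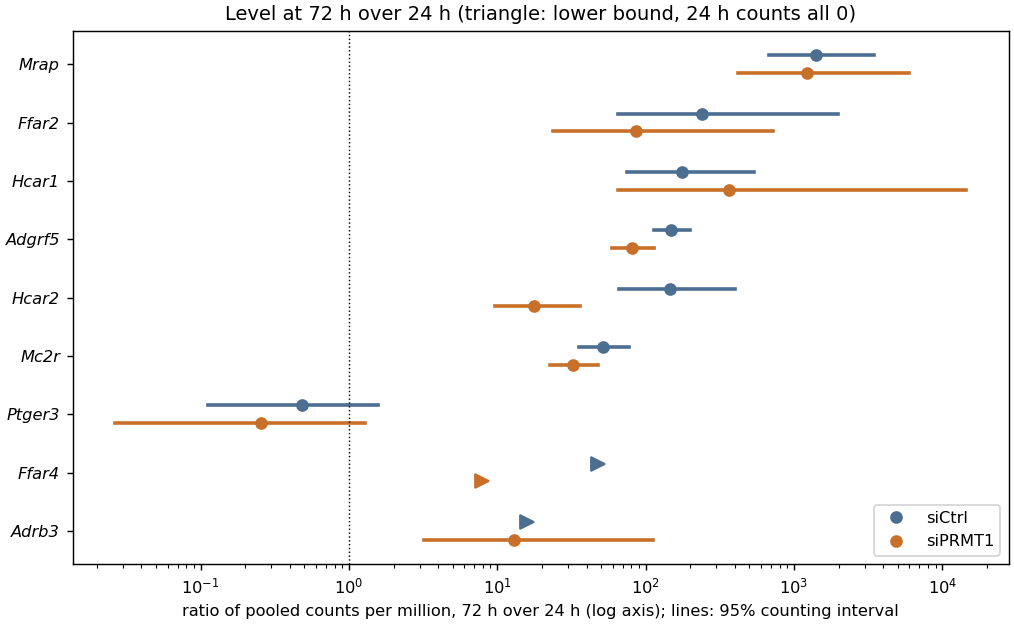
Ratio of the pooled CPM at 72 h to that at 24 h (log axis) in siCtrl (blue) and siPRMT1 (orange); lines are 95% counting intervals and triangles lower bounds for genes without a count at 24 h. All genes but Ptger3 lie right of 1, and the siCtrl and siPRMT1 intervals are apart for Hcar2 and, by little, for Adgrf5. The intervals leave out the spread between libraries.

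Summed markers of the cells also differed at 72 h. Of all genes tested there, 3.8% were called lower and 2.84% higher. The 10 adipocyte markers summed to 5685 to 6025 CPM in siCtrl and 4178 to 4500 CPM in siPRMT1 at 72 h. Of 9 tested, 5 were called lower: Cfd (log2 fold change −1.01), Plin1 (−0.71), Adipoq (−0.69), Slc2a4 (−0.56) and Cidec (−0.54), and the median of the 9 was −0.54. The 4 not called ran from −0.48 (Lpl) to −0.13 (Fabp4). The 10 preadipocyte and fibroblast markers summed to 3883 to 4141 CPM in siCtrl and 4975 to 5578 CPM in siPRMT1, with Dcn (1.31), Ly6a (0.96) and Pdgfra (0.60) called higher among 10 tested. The 7 not called ran from −0.070 (Dlk1) to 0.82 (Cd34). At 24 h the adipocyte sums were 339 to 392 and 295 to 332 CPM and the fibroblast sums 8888 to 9635 and 8297 to 8852 CPM. Macrophage and leukocyte markers summed to 6.78 to 8.50 CPM at 72 h, with Ptprc, C1qa, C1qb and Tyrobp at 0 in every library. The part of these shifts in the receptors' differences was not tested, and in such bulk samples fewer cells of a type and less RNA per cell cannot be told apart.

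Other receptors of the same kinds had median log2 fold changes near 0 at 72 h. The counts of calls that follow stand beside 3.8% of all genes tested that were called lower and 2.84% called higher. The lists were written by hand from the known roles of the genes, with earlier results of these data known. Of 32 further metabolite and lipid receptors, 15 were tested, 2 were called lower and 1 higher, with a median log2 fold change of 0.14. Gpr35 measured 0.687 ± 0.121 FPKM (SD, n = 3) in siCtrl and 0.213 ± 0.0153 in siPRMT1 (log2 fold change −1.65, SE 0.180, adjusted p = 2.08e-05 by edgeR). The ATP and UTP receptor P2ry2 fell by 0.98 and the lysophosphatidic acid receptor Lpar4 rose by 0.60 on the log2 scale. Of 40 hormone and prostaglandin receptors, 17 were tested, with a median of 0.032. The 1 called higher was Npy1r, the neuropeptide Y receptor Y1 (log2 fold change 1.37, SE 0.216, adjusted p = 0.000482 by edgeR). In each of these lists 2 receptors were called higher without siCtrl replicate 1, and in the hormone list also without siPRMT1 replicate 1 or 3.

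Among 14 receptor accessory proteins, the group of Mrap, 8 were tested and 1, Reep6, was called lower, from 18.3 ± 1.66 to 10.6 ± 2.01 FPKM (SD, n = 3). Among 29 adhesion receptors, the group of Adgrf5, 11 were tested and 1, Adgrl3, was called higher (log2 fold change 0.52), which was lost without siCtrl replicate 3 (0.39), siPRMT1 replicate 1 (0.44) or siPRMT1 replicate 3 (0.46), and DESeq2 did not call it. The medians of these lists were −0.080 and 0.086.

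Downstream of the receptors, the signalling lists had medians of 0.053 and −0.033, and 9 of the 13 lipolysis genes tested were called lower, beside the same 3.8% lower and 2.84% higher of all genes. Of 33 G proteins, arrestins, receptor kinases and RGS proteins tested, 2 were called higher and 0 lower, namely Rgs4 (log2 fold change 0.80) and Rgs16 (0.53), which quench G protein signals. By an unadjusted p under 0.05 in edgeR, 2 genes of this list were lower, and DESeq2 called 0 lower. The count for this list was 1 without siCtrl replicate 1 or without siPRMT1 replicate 2. Of 32 genes of cyclic AMP synthesis, sensing and breakdown tested, 3 were called lower and 1 higher. The former were the adenylyl cyclase Adcy5 (−0.87) and the phosphodiesterases Pde1b (−0.57) and Pde3b (−0.51), and the latter the cyclic AMP sensor Rapgef3 (0.52). None of the 3 lower calls was left without siPRMT1 replicate 2 or replicate 3, 1 was left without siCtrl replicate 2 or replicate 3, and Rapgef3 was lost without siCtrl replicate 1 or siPRMT1 replicate 3. DESeq2 called 1 gene of the list lower and 1 higher. Of 13 lipolysis effectors tested, 9 were called lower and 0 higher, with a median of −0.58. Plin1, Fabp4 and Cidec of this list are also among the adipocyte markers. No effector had a higher level at an unadjusted p under 0.05, and DESeq2 called 8 lower and 0 higher. The monoacylglycerol lipase Mgll went from 6.16 ± 0.329 to 3.43 ± 0.0681 FPKM (SD, n = 3), the lipase inhibitor Hilpda from 30.4 ± 1.93 to 17.2 ± 0.694 FPKM, and the lipid droplet coat protein Plin1 from 183 ± 11.0 to 113 ± 7.96 FPKM. Of 17 ligands and ligand-making enzymes tested, the 1 called lower was the lactate transporter Slc16a3 (−0.84).

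**Figure D5:**
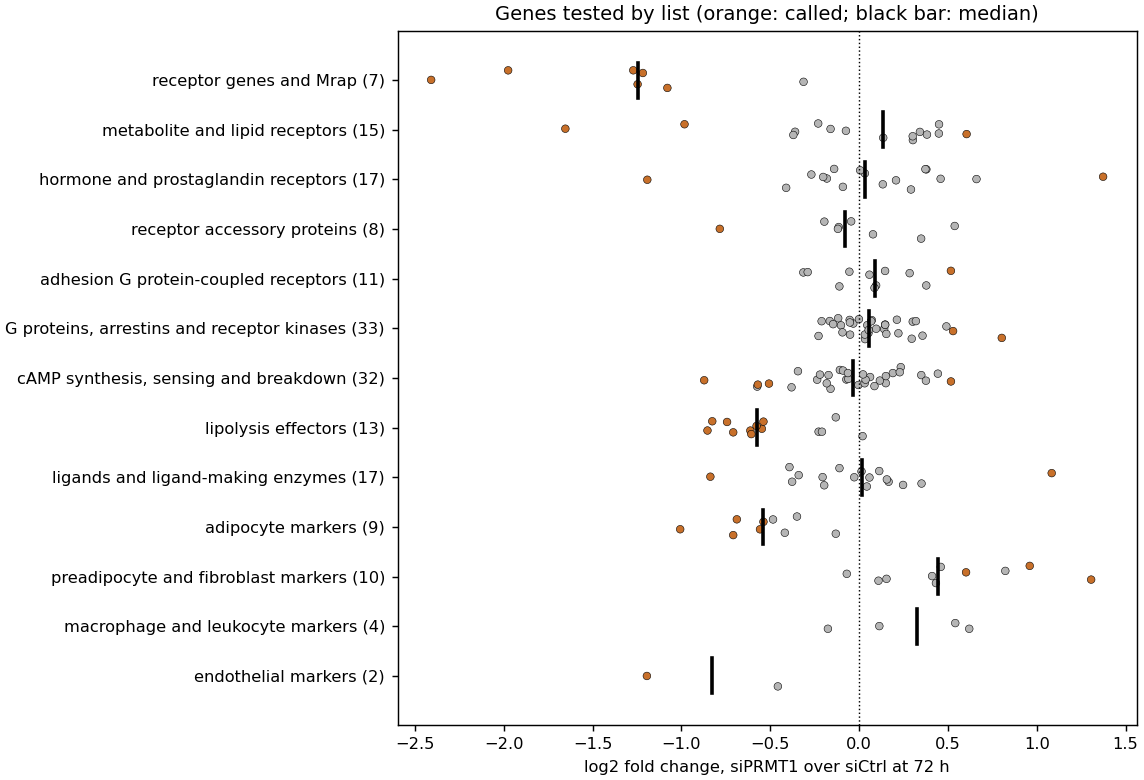
Log2 fold change of siPRMT1 over siCtrl at 72 h for each gene tested of the receptor genes (top row), the pathway lists and the marker lists; orange points are called, black bars are medians, and the height of a point within a row is random. The top row has a median near −1.25, the medians of the lipolysis effectors (−0.58) and adipocyte markers (−0.54) are also below 0, and the other receptor lists scatter around 0. The top-row genes were chosen on levels that include this contrast, so their place beside the other rows repeats part of that choice.

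At 24 h, when the 9 genes were near 0, the same lists held calls in both directions, beside 3.56% of all genes tested. In edgeR, none of the 10 metabolite and lipid receptors and none of the 29 cyclic AMP genes tested passed, and DESeq2 also called 0 of either list. At an unadjusted p under 0.05, 2 of these receptors were lower, and 4 of the cyclic AMP genes were higher and 5 lower. Ramp3 (log2 fold change 1.07) and Rtp4 (2.06), accessory proteins of other receptors, were called higher. Called lower were Mc5r (−0.97), another melanocortin receptor, Ramp2 (−1.51), Adgrf1 (−1.81), Rgs16 (−0.93), Gnb5 (−0.63), the triglyceride lipase Pnpla2 (−0.85), the phospholipase Pla2g16 (−0.69) and the droplet protein Cidec (−0.90), whereas the prostaglandin synthase Ptgs2 was higher (0.82). Most of these calls depended on single libraries. In all, 267 genes were called higher and 220 lower, against 61 and 62 without siPRMT1 replicate 3 of 24 h and 504 and 369 without siCtrl replicate 3. Of the genes named for 24 h, Ramp3 and Rtp4 were called whichever library was left out, and each of the others lost its call without at least 1 library.

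Across the 12 libraries the genes whose levels ran most like those of the receptors were sought among 12459 genes, for those 6 receptor genes whose mean reached 1 CPM. Pearson's r of log2 CPM describes likeness only, since all libraries share the step from 24 h to 72 h, and it carries no test. Hcar1 and Adgrf5 both ran closest with Dgat2, the last enzyme of triglyceride synthesis (r = 0.999 for each), which stood at 165 FPKM in siCtrl and 93.9 FPKM in siPRMT1 at 72 h. Hcar1 was followed by Acsl1 and Dgat1, and Adgrf5 by Ncoa1 and Apmap. Mrap ran with Spry4 (0.999), Cfd and Mcam, and Ffar2 with Npnt (0.995), Aatk and Pdzk1. Hcar2 ran with Fam110c (0.994), Gpt and Hk2_1, a suffixed entry for hexokinase 2. Mc2r, with its small knockdown difference, ran with Mief2 (0.997), Krt14 and Sdad1, and Mief2 stood at 8.18 FPKM in siCtrl and 7.61 FPKM in siPRMT1 at 72 h.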

How the data were processed

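RNA from 3T3-L1 cells was sequenced in 12 libraries, 3 for each of 4 conditions. The authors deposited counts, whole numbers of reads per gene without normalization, and FPKM, which recomputation from counts, listed length and library total matched to within 0.005. Per the labels, cutadapt 1.11, HISAT2 2.1.0, RSEM 1.2.6 and build mm10 were used, without stated roles, and the counting rule and strand setting are not given in the sources used here. The gene lengths and GRCm38 positions are as deposited. No member shares exons with another gene. Replicates differed by 4.14 to 50.6 in chi-square per gene over 12 pairs, so none was merged. The highest values, 50.6 and 30.8, were both of pairs with siCtrl replicate 3 of 24 h, and the next was 15.8.

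Counts were fitted in edgeR 4.0.16 (R 4.3.3) with TMM and filterByExpr: knockdown at 24 h and at 72 h, siCtrl over time, and siRNA by time. p-values were adjusted by Benjamini-Hochberg over all genes tested, and called genes had adjusted p under 0.05 and absolute log2 fold change above 0.5. Scripts were tested on simulated data. Alternatives were DESeq2 1.42.0, other scaling, filters and thresholds, a replicate block, and leaving out each library. The members and lists were chosen with earlier results of these data known. Named genes are all 9 members, Prmt1, up to 3 called genes of smallest p per list and knockdown comparison (markers and Pde1b beyond it were named after their values were seen), and the 3 genes most like each member, by Pearson's r of log2 CPM with a prior count of 2. Results of some list genes that the rule names are not reported here.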

Additional observations from a re-analysis of the deposited data

Results flagged for a closer look

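For these genes the knockdown difference itself differed between 72 h and 24 h in edgeR's interaction term over all 12 libraries; values are the log2 fold change at 72 h minus that at 24 h, and no explanation was tested. Hcar2 is given as a description: −2.92 (SE 0.657), on few counts at 24 h.

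Among other receptors, the difference was −1.88 for Gpr35 (adjusted p = 0.00391), 0.72 for Mc5r (0.0106), 0.96 for Npy1r (0.0245) and 0.62 for Adgrl3 (0.0481). Among accessory proteins it was −2.08 for Rtp4 (adjusted p = 4.46e-05), which was 2.06 at 24 h and −0.045 at 72 h, 1.87 for Ramp2 (0.0214) and −0.94 for Reep6 (0.0335). Gpr35 had too few counts at 24 h to be tested there. With 1 library left out, the 24 h call of Mc5r held in 1 of 6 fits, and that of Ramp2 in 1 of the 5 that tested it.

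Among signalling genes the difference was 1.48 for Rgs16 (adjusted p = 0.000101), called lower at 24 h and higher at 72 h, 0.94 for Rgs4 (0.000921) and 0.53 for Gnb5 (0.0483). It was −1.22 for Mgll (adjusted p = 0.00216) and −0.79 for Hilpda (0.00206). The 24 h calls of Rgs16 and Gnb5 each held in 2 of 6 fits with 1 library left out.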

How the results depend on the processing

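At 72 h the 6 lower calls among the members held without any 1 library, and under the other settings, apart from 5 with at least 10 counts in every library, where Ffar4 was not tested. Without a fold threshold the genes called were 441 higher and 599 lower at 24 h, 1058 and 1255 at 72 h, and 1123 higher in the interaction. With at least 10 counts in every library, the members called were 1 in the course, Adgrf5, and 0 in the interaction. The other members had fewer counts at 24 h and were not tested, and Adgrf5 was tested in the interaction but not called.

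Leaving out 1 library each, the calls ranged from 61 to 504 higher and 62 to 369 lower at 24 h, from 322 to 400 and 439 to 574 at 72 h, from 2768 to 3435 and 2798 to 3203 in the course, and from 504 to 902 and 305 to 1005 in the interaction. Members called in the interaction ranged from 0 to 2. The interaction of Mrap, −0.24 and not called, ranged down to −0.82 without siPRMT1 replicate 2 of 24 h and became 0.24 without siCtrl replicate 1 of 24 h and 0.62 without siPRMT1 replicate 3 of 24 h; the cause was not tested. 

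Samples share only a replicate number: deviations of same-numbered libraries correlated by −0.0538, 0.227 and 0.310 at 24 h and by 0.307, 0.144 and −0.0871 at 72 h. With the replicate block, 296 genes were called higher and 240 lower at 24 h, 426 and 548 at 72 h, 3140 and 2789 in the course, and 767 and 573 in the interaction, and 6 members were lower at 72 h. DESeq2 called 298 higher and 418 lower at 72 h. Depth limits Ffar4, Adrb3 and Ptger3 at 72 h and every member at 24 h.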
